A study of Mus musculus with 8 samples.

Results

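The carboxylesterase genes described here are Ces1d, Ces1e, Ces1f, Ces1g, Ces2a, Ces2b, Ces2c and Ces2e, 8 of 20 carboxylesterase genes listed for the mouse and 8 of 55414 gene identifiers in the table. They were chosen by name, with the difference between the diets already known, so their diet differences are given below as a description and support nothing by themselves. RNA was sequenced from Paneth cells, the secretory cells at the base of the crypts of the small intestine, which were sorted by flow cytometry. All mice were of the C57BL/6J strain, and the labels name no engineered allele and no treatment other than the diet. The standard diet group held 4 mice given standard chow, the zinc depleted diet group held 4 mice given chow depleted of zinc, and both groups were fed freely for 7 weeks. Each mouse gave 1 library, and age and sex were not used here.

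Carboxylesterases are serine hydrolases, most of them held in the lumen of the endoplasmic reticulum, that split esters, amides and thioesters. Their substrates include drugs and prodrugs, triglycerides, cholesteryl esters and retinyl esters. In the mouse the family has expanded into tandem copies: the Ces1 genes are best known from liver, adipose tissue and plasma, and the Ces2 genes from the intestine and liver, where enterocytes, the absorptive cells of the villus, use them in the hydrolysis of swallowed drugs and in lipid handling.

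The members lay in a pair of clusters on chromosome 8 (GRCm39). The 4 Ces1 members occupied the minus strand between positions 93892693 and 94063953, a span of 171.3 kb, and each had 14 exons in its canonical GENCODE M39 transcript. The 4 Ces2 members occupied the plus strand between positions 105460630 and 105661304, a span of 200.7 kb, and each had 12 exons. Coding sequences within the Ces1 members were 74.3% to 81.6% identical over 6 pairs, those within the Ces2 members 82.4% to 91.3% identical over 6 pairs, and those of a Ces1 and a Ces2 member 56.3% to 58.7% identical over 16 pairs.

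The active-site serine is the residue that attacks the ester bond. The stretch of 30 coding bases around its codon is shown, 5′ to 3′, because it is the catalytic core that the 8 members share. Capitals mark the serine codon, which is codon 221 in Ces1d, Ces1f and Ces1g, 222 in Ces1e, 227 in Ces2a, 225 in Ces2b, 230 in Ces2c and 228 in Ces2e. Ces1c, which is no member but was the family's most abundant gene in these cells, is added for comparison.
Ces1d: atctttggagagTCAgcaggaggtttcagt
Ces1e: atctttggagagTCAgcaggaggtgaaagt
Ces1f: atctttggagagTCAgcaggaggttacagt
Ces1g: atcttcggcgagTCAgcaggaggtgaaagt
Ces2a: atatttggagtcTCAgcaggaggtacaagt
Ces2b: atttttggcgagTCTgcaggtggcacaagt
Ces2c: atttttggcgagTCTgcaggtggcacaagt
Ces2e: atttttggagagTCAgcaggtggcacaagt
Ces1c: atctttggagagTCAtcagggggtatcagt
Over these 30 bases Ces2b and Ces2c were identical, which was the closest pair among the members also over the whole coding sequence (91.3%).

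The end of the coding sequence differed between the members and Ces1c. The last 4 codons are shown in capitals, with the stop codon in lower case, because a carboxyl end of histidine, any residue, glutamate and leucine is the known signal that keeps a carboxylesterase in the endoplasmic reticulum.
Ces1d: CATGTTGAGCTCtga
Ces1e: CACACTGAGCTGtga
Ces1f: CACAATGAGCTGtga
Ces1g: CATGTTGAACTGtga
Ces2a: CATGCAGAGCTGtag
Ces2b: CACACGGAGCTTtag
Ces2c: CACAGGGAGCTTtag
Ces2e: CACAAAGAGTTGtag
Ces1c: ACAGAACACAAAtga
These codons encoded that ending in 8 of 8 members and in 3 of 11 other protein-coding genes of the family (Ces1h, Ces2g and Ces2h). Ces1c, the plasma carboxylesterase, lacked it. The ending was read from the reference genome and says nothing of the protein in these cells.

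Near-identical copies can lose or exchange reads during counting. Of all stretches of 75 bases in its canonical transcript, 100% occurred nowhere else in the other transcripts or the genome for Ces1d, Ces1f and Ces1g, 98.9% for Ces1e and 99.7% for Ces2e. The share was 91.9% for Ces2b and 84.8% for Ces2a. For Ces2c it was 33.3%, so its counts are uncertain. Of its stretches, 24.9% were also present in the canonical transcript of the pseudogene Ces2d-ps and 1.64% in that of Ces2b. The rest of the shared stretches of Ces2c, and those of Ces2a, lay in no other canonical transcript of the family. They matched further transcripts or other places in the genome, which were not identified. Ces2d-ps itself was at 0 counts in all 8 mice.

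Libraries held 8557690 to 12648005 counts. TMM, which scales libraries to a common composition, gave factors of 0.928 to 1.57 in the standard diet group and 0.719 to 1.1 in the zinc depleted group, and values below are TMM-scaled counts per 1000000 counts (CPM) unless named otherwise. At these depths a count of 0 allows a level of up to 3 counts, which is 0.161 to 0.379 TMM-scaled CPM, while the two-sided 95% exact Poisson interval used for single values reaches 0.199 to 0.465 at a count of 0. Intervals and limits cover counting error only. The labelled cell type was checked by its markers: 10 Paneth cell markers, among them Lyz1 and Defa24, all detected, summed to 294685 to 608067 TMM-scaled CPM on the standard diet and 477244 to 847091 on the zinc depleted diet. Of these 10, 0 passed edgeR's test, 1 was below 0, against 50.7% of all genes tested, and the median log2 fold change was 0.45. Ang4 (log2 fold change 0.99, SE 0.35) and Mptx2 (1.45, SE 0.34) were higher without overlap, against 2.3% of all genes tested. The part of this shift in the values below was not tested. In bulk samples, fewer cells of a type and less RNA per cell cannot be told apart.

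Carboxylesterases were rare transcripts in these cells. The 8 members together took 0.00213% to 0.00343% of all counts in the standard diet group and 0.000717% to 0.00223% in the zinc depleted group. Ces1c alone held 61.2% to 68.4% of the family's counts (not per length) in the standard diet group and 71.7% to 83.4% in the zinc depleted group, without overlap. On the length-scaled level (counts per kilobase of exon, scaled to the same sum in every library, TPM), Ces1c averaged 18.2 ± 4.51 (SD, n = 8 mice), against 1.78 ± 0.809 for Ces1e, the highest member.

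Compared per summed exon length, the members fell in the order Ces1e, Ces2e, Ces2a, Ces1d, Ces2c, Ces1g, Ces1f and Ces2b. Mean levels over the 8 mice were 1.78 ± 0.809 TPM (SD) for Ces1e and 1.44 ± 0.706 TPM for Ces2e. Ces2a and Ces1d had nearly the same mean level over both diets, 0.801 ± 0.475 TPM and 0.800 ± 0.820 TPM. The order of their means differed by diet. On the standard diet Ces1d averaged 1.36 ± 0.838 TPM and Ces2a 1.07 ± 0.453 TPM. On the zinc depleted diet Ces1d averaged 0.239 ± 0.164 TPM and Ces2a 0.528 ± 0.348 TPM. Ces2c averaged 0.382 ± 0.236 TPM, Ces1g 0.0904 ± 0.123 TPM, Ces1f 0.0732 ± 0.0611 TPM and Ces2b 0.00685 ± 0.0194 TPM.

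Neighbours in this order were compared within each mouse on the log2(TPM + 1) scale by flipping the sign of the difference in every combination of mice (an exact permutation test, two-sided), with Benjamini-Hochberg adjustment over 7 pairs. The smallest p this design allows is 0.00781. Ces2e lay above Ces2a by 0.42 ± 0.28 (SD of the within-mouse difference) in 7 of 8 mice, Ces2c above Ces1g by 0.33 ± 0.27 in 7 of 8 mice, and Ces1f above Ces2b by 0.09 ± 0.07 in 7 of 8 mice. Ces2b was under the floor of 3 counts in all 8 mice and Ces1f in 4 of them, so no order is read from that last pair. Ces1g was at 0 counts in 4 of 8 mice and the counts of Ces2c are uncertain, so the order of Ces2c and Ces1g is uncertain too. In each of these 3 pairs the exact permutation p was 0.0156 and the adjusted p 0.0365. Ces1e and Ces2e (adjusted p 0.241 by the exact permutation test), Ces2a and Ces1d (0.766), Ces1d and Ces2c (0.241), and Ces1g and Ces1f (0.766) did not differ beyond their spread. The tests pooled the diets, so the spread of the pairs with Ces1d includes its diet difference. With the canonical transcript's length in place of the summed exon length, or with no length at all, 0 of 7 pairs passed. The place of Ces1d changed too, as its summed exons span 5135 bases and its canonical transcript 2004. With the canonical length it stood directly below Ces1e, above Ces2e and Ces2a. With no length, or without standard diet mouse 3 or 4 or any zinc depleted mouse, it stood above Ces2a. With 7 mice, after any 1 was left out, 0 pairs passed as well. The smallest possible p was then 0.0156, the same p at which 3 pairs passed together with 8 mice. The part of the number of mice in that loss was not tested.

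**Figure D1:**
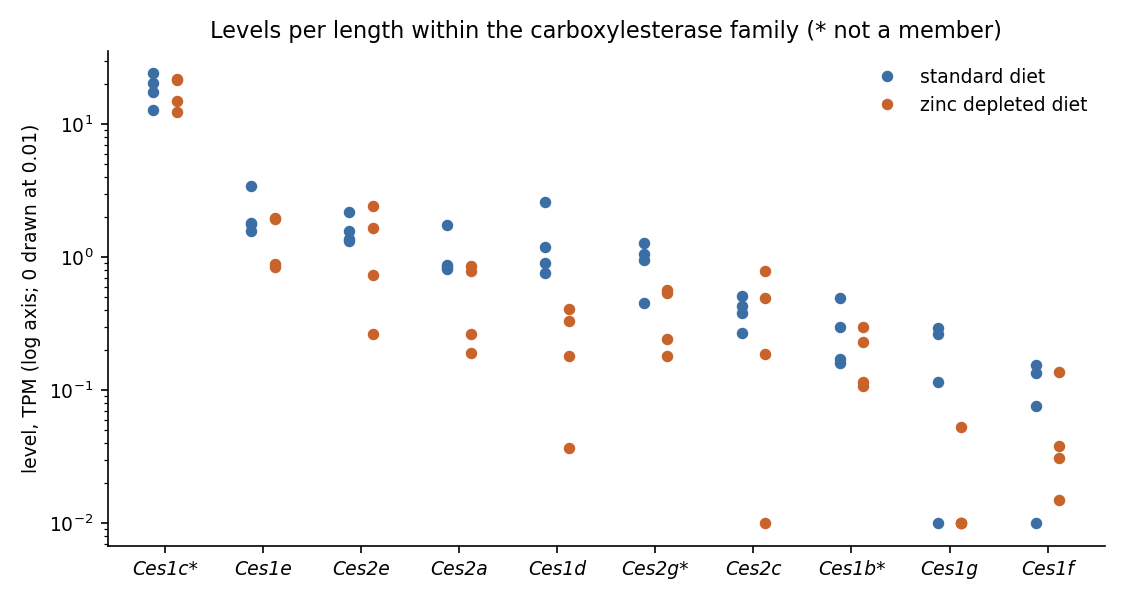
Length-scaled level of the 10 carboxylesterase genes with a mean above 0.05 TPM, on a log axis in TPM, with 1 point per mouse (blue, standard diet; orange, zinc depleted diet; a level of 0 is drawn at 0.01) and non-members starred. Ces1c, with a mean of 18.2 TPM, lies above every member in every mouse, and Ces1d is the only member whose diets are apart.

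Ces1d, also known as triacylglycerol hydrolase, releases fatty acids from stored triglyceride in liver and adipose tissue and can hydrolyse retinyl esters. Its level was 8.77, 6.14, 6.30 and 5.18 TMM-scaled CPM in standard diet mice 1 to 4, from 163, 75, 50 and 49 counts. In zinc depleted mice 1 to 4 it was 2.80, 1.77, 1.83 and 0.280 TMM-scaled CPM, from 26, 14, 23 and 3 counts. Every zinc depleted mouse lay below every standard diet mouse. The lowest value, in zinc depleted mouse 4, had a 95% exact Poisson interval of 0.0578 to 0.819 TMM-scaled CPM.

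The mean level of Ces1d was 6.60 ± 1.53 TMM-scaled CPM (SD, n = 4) on the standard diet and 1.67 ± 1.04 (SD, n = 4) on the zinc depleted diet. The log2 fold change was −2.0 (SE 0.40), a 4.00-fold lower level, with a Benjamini-Hochberg adjusted p of 0.0376 in edgeR's quasi-likelihood test over 10911 genes. Of these genes, 0.257% passed as lower and 0.147% as higher, while 3.79% had lower and 2.3% higher values without overlap. Ces1d was among the genes whose contrast the choice of members used, so this is a description. The call rested on each standard diet mouse and on zinc depleted mice 2 and 3, since leaving out any of these 6 gave adjusted p-values of 0.0724 to 0.147 by the same edgeR test. The fold change stayed between −2.39 and −1.64 on the log2 scale over 15 alternatives.

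Ratios between genes of the same library do not depend on how libraries are scaled. Ces1d had 20.9, 11.3, 10.2 and 11.6 counts per 100 counts of Ces1c in standard diet mice 1 to 4, and 3.62, 2.88, 2.98 and 0.478 in zinc depleted mice 1 to 4. Per 100 counts of Ces1e, the adjacent gene on the same strand, it had 68.1 to 123.0 counts in the standard diet group and 6.82 to 35.0 in the zinc depleted group. Both ratios were apart between the diets. Ces1d made up 20% to 40.1% of the counts of all 8 members on the standard diet and 3.12% to 17.7% on the zinc depleted diet.

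Ces1e, or egasyn, binds β-glucuronidase and holds it in the endoplasmic reticulum of the liver. Its level was 7.16, 4.99, 7.56 and 7.61 TMM-scaled CPM in standard diet mice 1 to 4, and 8.08, 5.05, 6.69 and 4.11 in zinc depleted mice 1 to 4. The diets overlapped, with the highest and the lowest value of the 8 mice both in the zinc depleted group. The log2 fold change was −0.19 (SE 0.25, edgeR adjusted p 0.859). The difference between the fold changes of Ces1d and its neighbour was not tested.

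Ces1g and Ces1f, both known from lipid handling in the liver, were near the limit of detection and did not pass the expression filter, so they had no fitted fold change. Ces1g had 9, 10, 0 and 4 counts in standard diet mice 1 to 4 and 0, 0, 2 and 0 counts in zinc depleted mice 1 to 4. It was detected in 3 of 4 standard diet mice and in 1 of 4 zinc depleted mice, and the diets overlapped at 0. The ratio of its pooled scaled counts, zinc depleted to standard diet, was 0.104 with a 95% counting interval of 0.0118 to 0.419. That interval leaves out the spread between mice. Ces1f had 7, 4, 7 and 0 counts on the standard diet and 2, 2, 8 and 1 on the zinc depleted diet, with a pooled ratio of 0.860 (counting interval 0.388 to 1.86). Its values overlapped across nearly their whole range.

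Ces2e and Ces2a are Ces2 enzymes of intestine and liver with activity on drugs and neutral lipids. Ces2e was at 2.85, 3.68, 8.06 and 4.97 TMM-scaled CPM in standard diet mice 1 to 4, and at 6.04, 1.39, 7.25 and 2.99 in zinc depleted mice 1 to 4. Ces2a was at 1.61, 2.54, 7.05 and 3.49 TMM-scaled CPM in standard diet mice 1 to 4, and at 3.45, 1.51, 2.55 and 0.841 in zinc depleted mice 1 to 4. Standard diet mouse 3 was the highest of the 8 mice for both genes, and both overlapped between the diets.

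The log2 fold change was −0.09 (SE 0.43) for Ces2e, with an edgeR adjusted p of 0.966. For Ces2a it was −0.77 (SE 0.47), with an edgeR adjusted p of 0.610. Without standard diet mouse 3 the log2 fold change of Ces2a was −0.26 and that of Ces2e was 0.24, and neither passed in any alternative.

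Ces2c, a triglyceride hydrolase of the intestine whose counts are uncertain for the shared sequence given above, had 11, 15, 11 and 8 counts on the standard diet and 23, 0, 16 and 7 on the zinc depleted diet. Its highest and lowest counts of the 8 mice were both in the zinc depleted group. Its log2 fold change was 0.18 (SE 0.66, edgeR adjusted p 0.957) and ranged from −0.51 to 0.55 as 1 mouse at a time was left out. Ces2b had 2 counts in standard diet mouse 3 and 0 counts in the other 7 mice, at or under the floor of 3 counts throughout.

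**Figure D2:**
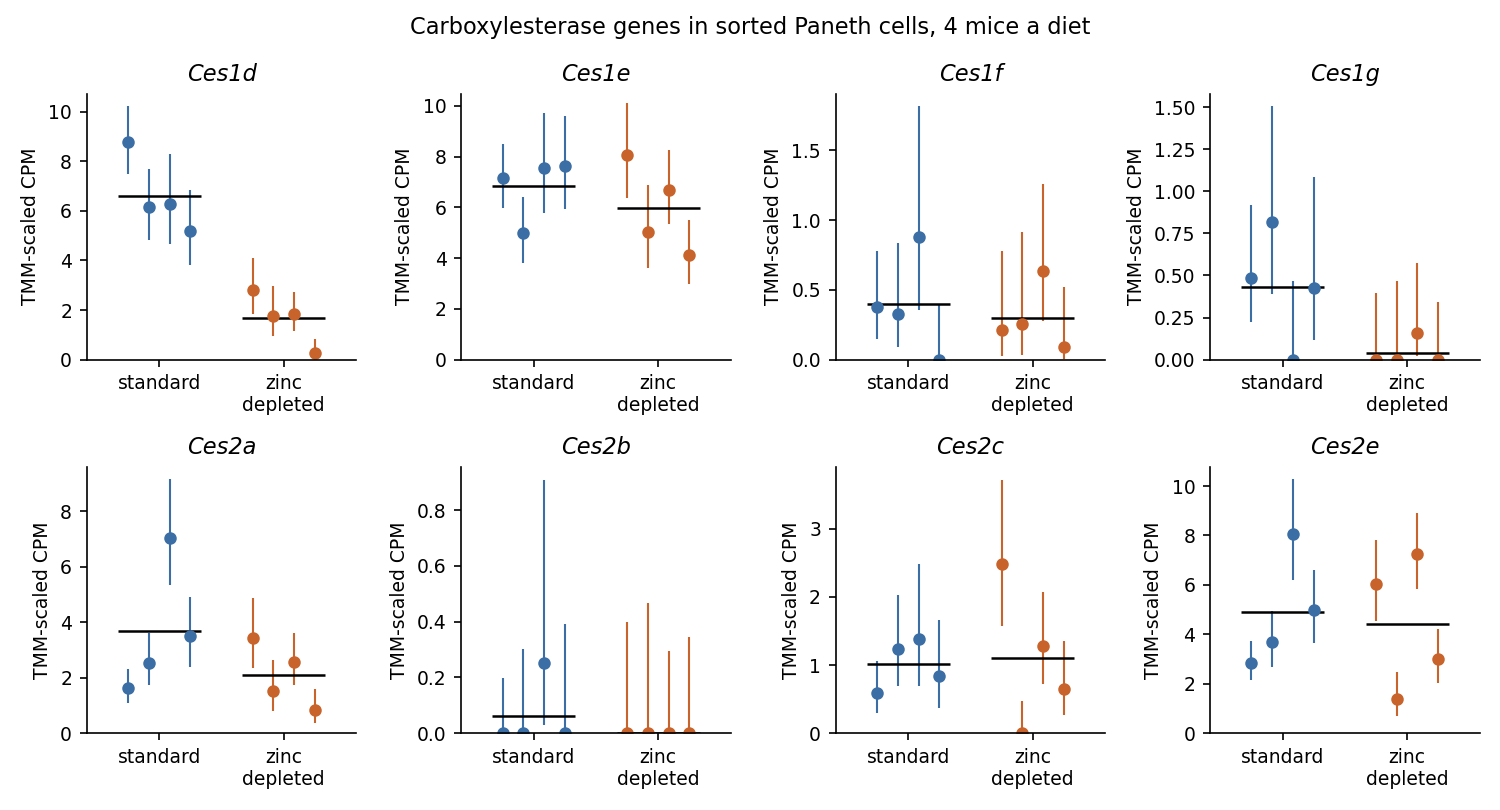
TMM-scaled CPM of the 8 members, each with its own axis from 0, with 1 point per mouse (blue, standard diet; orange, zinc depleted diet; mice 1 to 4 from left to right), 95% exact Poisson intervals as bars and the group mean as a black line. Ces1d runs from 5.18 to 8.77 on the standard diet and from 0.280 to 2.80 on the zinc depleted diet, and the diets overlap in the other members.

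Of the 8 members, 5 passed the expression filter and 3 (Ces1f, Ces1g and Ces2b) did not. Of the 5, 1 was called lower and none higher, against 0.257% and 0.147% of all genes tested. A log2 fold change below 0 was found in 4 of the 5, against 50.7% of all genes tested. The median log2 fold change was −0.19 over these 5 and −0.01 over the 10911 genes. Summed over the 8 members, the level was 19.7 to 31.5 TMM-scaled CPM on the standard diet and 8.97 to 23.1 on the zinc depleted diet. Without Ces1d the sums were 13.1 to 25.2 and 8.20 to 20.3 TMM-scaled CPM, and both pairs of ranges overlapped.

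As a share of the counts of all 20 family genes, the members held 24.8% to 32.5% on the standard diet and 12.4% to 23.8% on the zinc depleted diet, without overlap. Without Ces1d the other members held 17.1% to 26.01% and 11.1% to 21.7% of the family's counts, which overlapped. The level of the whole family was 68.6 to 96.8 and 72.3 to 102.5 TMM-scaled CPM, so the family sums overlapped. Ces1c ran from 42.0 to 61.8 TMM-scaled CPM on the standard diet and from 58.6 to 77.5 on the zinc depleted diet. Its log2 fold change was 0.35 (SE 0.15, edgeR adjusted p 0.426). With scaling by library size only, which moved the median of all genes to −0.37, it was 0.03.

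Of the 12 carboxylesterase genes that are no members, 3 passed the filter and 0 were called by edgeR's test. Ces2g was at 3.12, 3.93, 2.27 and 4.65 TMM-scaled CPM in standard diet mice 1 to 4, and at 1.19, 1.26, 2.15 and 3.08 in zinc depleted mice 1 to 4. It had a log2 fold change of −0.84 (SE 0.37, edgeR adjusted p 0.430). For Ces1b the log2 fold change was −0.07 (SE 0.43, edgeR adjusted p 0.975). Ces1a, Ces1h, Ces2d-ps, Ces2f, Ces3b, Ces4a and Ces5a were at 0 counts in all 8 mice, and Ces2h and Ces3a had 1 count each.

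**Figure D3:**
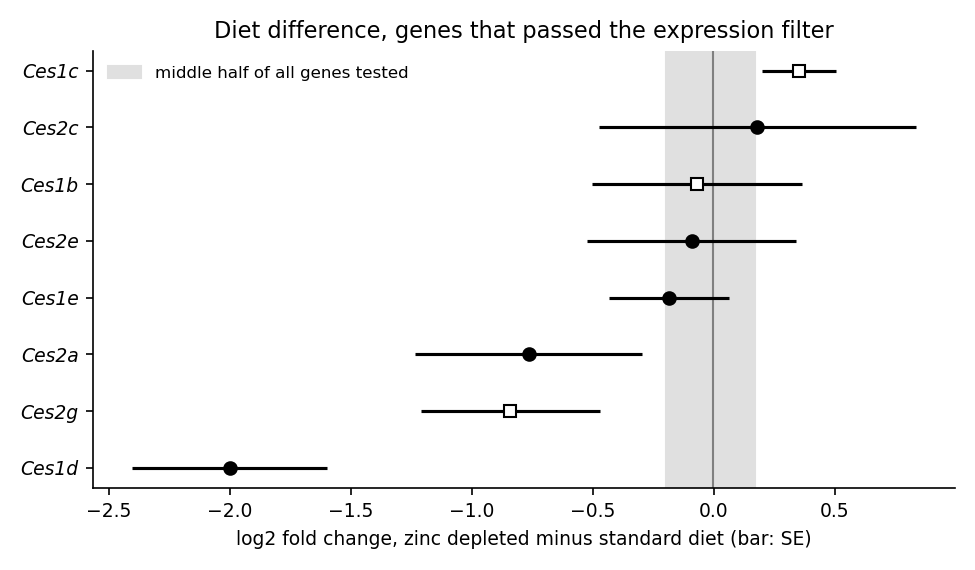
Log2 fold change, zinc depleted minus standard diet, with its SE as a bar, for the 5 members (filled circles) and 3 other carboxylesterase genes (open squares) that passed the filter; the band runs from the lower to the upper quartile of all 10911 genes (−0.20 to 0.17) and the line is their median. Ces1d, at −2.0, is the farthest from the band, and Ces1c, at 0.35, lies on its other side.

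Other enzymes that split esters and lipids were described from a list of 19 genes. Of these, 16 were tested and 0 passed edgeR's test in either direction. Below 0 were 5, against 50.7% of all genes tested, and the median log2 fold change was 0.08. The highest were the lactonase Pon2 (log2 fold change 0.21, SE 0.14), the S-formylglutathione hydrolase Esd (0.07, SE 0.17), the triglyceride lipase Pnpla2 (−0.14, SE 0.15) and the phospholipase Pnpla8 (0.08, SE 0.14). Aadac, Bche and Abhd5 were picked out after their values were seen, and none of them passed. Aadac, arylacetamide deacetylase, a further serine esterase of the endoplasmic reticulum, was at 3.07 to 10.7 TMM-scaled CPM on the standard diet and at 1.59 to 3.18 on the zinc depleted diet, with a log2 fold change of −1.53 (SE 0.35, edgeR adjusted p 0.0620). Its ranges met only at the lowest standard diet mouse, and it passed in 3 of 16 alternatives. Bche, butyrylcholinesterase, was lower without overlap (log2 fold change −0.99, SE 0.32, edgeR adjusted p 0.234). Abhd5, the activator of the lipase Pnpla2, was higher without overlap, at 6.62 to 8.68 and 10.02 to 15.3 TMM-scaled CPM (log2 fold change 0.61, SE 0.20, edgeR adjusted p 0.239). Over all genes tested, 3.79% were lower and 2.3% higher without overlap.

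In the list of triglyceride synthesis and chylomicron assembly, 16 of 19 genes were tested, 0 passed, 11 were below 0 and the median log2 fold change was −0.14. The highest were the acyl-CoA synthetase Acsl5 (−0.03, SE 0.13), the fatty acid binding protein Fabp2 (−0.29, SE 0.60), the lipid droplet protein Plin3 (0.13, SE 0.14) and the fatty acid transporter Slc27a4 (−0.16, SE 0.18), all as log2 fold changes. Of 11 genes of retinoid handling, 8 were tested, 0 passed, 7 were below 0 and the median was −0.38. Over all genes tested, 50.7% were below 0. Among these, Dgat1, which makes triglycerides and retinyl esters, had a log2 fold change of −0.42 (SE 0.19) and the retinal reductase Dhrs3 one of −0.57 (SE 0.27).

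Of 30 genes of drug metabolism, 21 were tested and the median log2 fold change was −0.09. Of the 21, 13 were below 0, against 50.7% of all genes tested, and 1 fell, against 0.257%. That gene was Cyp2b10, a cytochrome P450 known as a target of the receptor CAR. It was at 7.69 to 12.3 TMM-scaled CPM on the standard diet and at 1.21 to 5.17 on the zinc depleted diet, without overlap. Its log2 fold change was −1.55 (SE 0.32, edgeR adjusted p 0.0417). It passed in 4 of 16 alternatives, and leaving out any 1 mouse gave edgeR adjusted p-values of 0.0547 to 0.147. The highest genes of the list, the glucuronosyltransferase Ugt2b34 (log2 fold change −0.09, SE 0.13) and the cytochrome P450 Cyp2j6 (−0.08, SE 0.18), overlapped between the diets.

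Transcription factors known to control intestinal and drug metabolism genes made a list of 15, of which 13 were tested and 0 passed. Of these 13, 11 were below 0, against 50.7% of all genes tested, with a median log2 fold change of −0.28. Hnf4a, the most abundant, averaged 159 ± 22.2 TMM-scaled CPM (SD, n = 4) on the standard diet and 139 ± 17.2 (SD, n = 4) on the zinc depleted diet. Its log2 fold change was −0.19 (SE 0.15, edgeR adjusted p 0.726). For Cdx2 and Nfe2l2 the log2 fold changes were −0.34 (SE 0.16) and −0.28 (SE 0.16).

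Markers of the cell types in which carboxylesterases are best known were examined beside these values. The study's methods describe the sorted cells as nearly free of other cells. Of 20 enterocyte markers, 17 were tested, 0 passed and none was at 0 in all mice. Their summed level was 522, 519, 711 and 518 TMM-scaled CPM in standard diet mice 1 to 4, and 554, 458, 700 and 522 in zinc depleted mice 1 to 4. Standard diet mouse 3 and zinc depleted mouse 3, highest in this sum, were also the highest of their groups for Ces2e, and zinc depleted mouse 2, the lowest, had the lowest Ces2e and no count of Ces2c. Ces2a and Ces2c did not follow this order in the zinc depleted group, where both were highest in mouse 1 (3.45 and 2.48 TMM-scaled CPM) and Ces2a was lowest in mouse 4 (0.841). Vil1 and Anpep made up 62.2% to 83.6% of the enterocyte sum, and the other 18 markers summed to 85.4 to 269 and 81.9 to 231 TMM-scaled CPM. The part of enterocyte RNA in the Ces2 values was not tested. On the TMM scale Ces1d did not follow the order of the enterocyte sum, being highest in standard diet mouse 1 and lowest in zinc depleted mouse 4. Scaled by library size only, standard diet mouse 1 was the highest of all mice in both the sum (820 CPM) and Ces1d (13.8 CPM). The lowest mice still differed, with zinc depleted mouse 2 lowest in the sum (329 CPM) and zinc depleted mouse 4 in Ces1d (0.237 CPM). The part of enterocyte RNA in the Ces1d values was not tested.

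Of 8 markers of stem and transit amplifying cells, all were tested and 2 passed as lower, against 0.257% of all genes. They summed to 1411, 1577, 1478 and 1999 TMM-scaled CPM in standard diet mice 1 to 4, and to 1183, 1043, 744 and 621 in zinc depleted mice 1 to 4. Olfm4, which did not pass (edgeR adjusted p 0.108), made up 71.2% to 85.7% of this sum. Without it the other 7 markers summed to 253 to 286 on the standard diet and 179 to 228 on the zinc depleted diet, so the diets were apart with and without it. All 8 log2 fold changes were below 0, against 50.7% of all genes tested, from −0.05 for Pcna. The genes that fell were Top2a, the topoisomerase of dividing cells, with a log2 fold change of −1.18 (edgeR adjusted p 0.0229), and Mcm6, a subunit of the replication helicase, with one of −0.88 (edgeR adjusted p 0.0376). Top2a lost its call without standard diet mouse 2 or 4 or zinc depleted mouse 2 or 4 (edgeR adjusted p 0.0506 to 0.108), and Mcm6 without any of these or standard diet mouse 1 or zinc depleted mouse 3 (0.0727 to 0.155). On the TMM scale zinc depleted mouse 4 was the lowest of the 8 in both the sum and Ces1d. Standard diet mouse 4 was the highest of its group in the sum and the lowest in Ces1d, and standard diet mouse 1 the reverse. By library size only, standard diet mouse 1 was the highest of the 8 in both (2217 and 13.8 CPM). Zinc depleted mouse 4 was again the lowest in both (525 and 0.237 CPM). Standard diet mouse 4 was then the lowest of its group in Ces1d (4.91 CPM), and standard diet mouse 3 in the sum (1372 CPM). The part of these cells in the Ces1d difference was not tested.

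The 8 hepatocyte markers had summed levels of 299 to 359 TMM-scaled CPM on the standard diet and 153 to 217 on the zinc depleted diet. Of them, 4 were tested and 1 fell, against 0.257% of all genes tested. That gene was Cps1, a urea cycle enzyme that the intestine also makes, which took most of the sum. It fell by 0.93 on the log2 scale (edgeR adjusted p 0.0182). Its mean was 303 TMM-scaled CPM on the standard diet and 159 on the zinc depleted diet, where the sums averaged 322 and 177. It lost its call without standard diet mouse 2 or 4 or zinc depleted mouse 2 or 3 (edgeR adjusted p 0.0536 to 0.108). Of the 4 tested, 3 were below 0, against 50.7% of all genes tested. Beside Cps1, the log2 fold changes were −0.80 (SE 0.27) for Cyp2e1, −0.81 (SE 0.38) for Ttr and 0.79 (SE 0.44) for Apoh. The liver protein Alb reached at most 0.126 TMM-scaled CPM on the standard diet and 3.88 on the zinc depleted diet. Fgb, at 0 in 6 of 8 mice, was at 0 throughout the standard diet group and reached 3.45 on the zinc depleted diet. Adipocyte markers summed to at most 0.280 TMM-scaled CPM in any mouse, with Adipoq, Plin1 and Retn among 5 of 7 at 0 in all mice. Stromal and vessel markers summed to at most 0.161, also with 5 of 7 at 0.

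Goblet cell markers, 8 genes of which 0 passed, summed to 4632 to 11258 TMM-scaled CPM on the standard diet and 7670 to 14328 on the zinc depleted diet. Enteroendocrine markers summed to 21.2 to 41.6 and 16.2 to 41.3 TMM-scaled CPM, tuft markers to 34.4 to 88.4 and 18.7 to 317.6, and macrophage markers, nearly all Lyz2, to 17.8 to 41.2 and 36.8 to 52.0. Pancreatic acinar markers summed to 3.55 to 6.13 and 4.20 to 6.94 TMM-scaled CPM, with 6 of 8 at 0 in all mice. All these ranges overlapped between the diets, and none of these lists had a gene that passed.

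**Figure D4:**
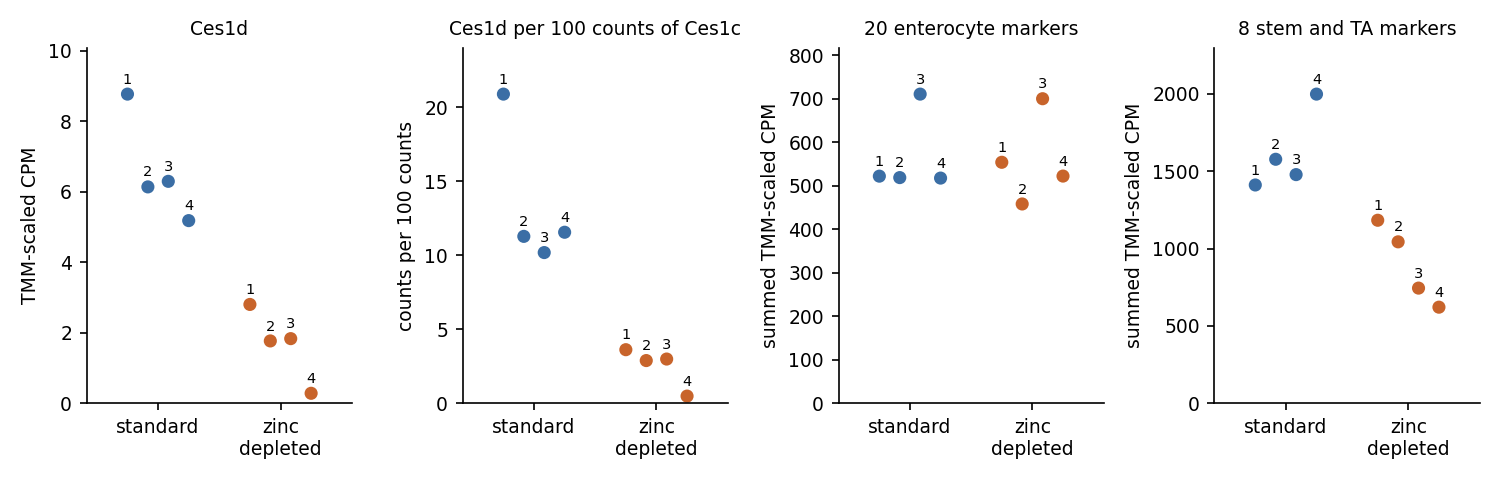
Ces1d in TMM-scaled CPM, Ces1d counts per 100 counts of Ces1c, and summed TMM-scaled CPM of 20 enterocyte markers and of 8 stem and transit amplifying (TA) markers, of which Olfm4 makes up 71.2% to 85.7%, with 1 numbered point per mouse (blue, standard diet; orange, zinc depleted diet) and axes from 0. The diets are apart in Ces1d, in its ratio to Ces1c and in the stem and TA sum (1411 to 1999 against 621 to 1183), and overlap in the enterocyte sum.

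The genes whose level was most like that of Ces1d over the 8 mice were sought among 7859 genes that averaged 5 CPM or more, by Pearson's correlation of log2(TMM-scaled CPM + 1). They were Clca4b (r = 0.97), Add1 (0.97), Map3k21 (0.97), Rasa3 (0.96) and Thap12 (0.96). The 8 mice are in 2 diet groups and share the diet difference, so these values describe a shared order of the mice only. Clca4b, of the calcium-activated chloride channel regulator family, had means of 33.2 and 13.4 TMM-scaled CPM on the standard and the zinc depleted diet. Its log2 fold change was −1.31 (SE 0.20, edgeR adjusted p 0.00719). The other four did not pass.

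The genes most like the mean of the 5 tested members were Pdik1l (r = 0.96), Nelfb (0.96), Rcc1 (0.94), Dpyd (0.94) and Zdhhc6 (0.94). None of them passed between the diets, with log2 fold changes of −0.46 for Dpyd, the enzyme that breaks down pyrimidines, to −0.05 for Zdhhc6. No gene was in both lists of 5.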

How the data were processed

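Paneth cells of 8 mice were sorted by flow cytometry, and libraries were made with the TruSeq stranded mRNA kit. The authors deposited raw counts, whole numbers without normalization, for each Ensembl gene. The submitters' processing notes name FastQC 0.12.0, STAR 2.7.0a, DESeq2 and the build mm39. Not given in the sources used here were the counting program, its use of strand, the annotation release and how reads with several matches were counted, which could lower or exchange counts of near-identical genes. The members and the gene lists were chosen with earlier results of these data known.

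From the counts, TMM-scaled CPM were computed, and TPM from summed exon lengths of GENCODE M39 on GRCm39, in which 54749 of 55414 identifiers were found. Totals were 8557690 to 12648005 counts. The diet comparison used edgeR 4.0.16 (R 4.3.3, expression filter, 10911 genes kept, robust quasi-likelihood test, Benjamini-Hochberg threshold 0.05), with 4 mice per diet; DESeq2 1.42.0 was an alternative. The labels call the mice biological replicates. Libraries of a group differed by more than sampling noise. Genes named were the members, the rest of the family, list genes that passed or were highest in CPM (at most 4 a list), and the 5 most like Ces1d or the members' mean. Aadac, Bche, Abhd5, Alb, Fgb, Ang4, Mptx2 and defining markers named as absent fell outside this rule and were chosen after their values were seen. Neighbouring levels were compared by exact sign flips. Coding stretches and unique stretches of 75 bases were read from GENCODE M39 transcripts. Scripts were tested on simulated data. Alternatives changed the test, scaling, filter, robust option, replicate number, length, pseudocount and window, and left out each mouse. For named genes outside the family and Ces1b, Ces1c and Ces2g, the alternatives were added after seeing the data.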

Additional observations from a re-analysis of the deposited data

Results flagged for a closer look

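In 9 of 48 groups of 4 mice examined, 1 mouse lay far from the other 3 (gap over range above Dixon's 95% critical value). Chance alone gives this in about 1 in 20 groups, and 5 of the 9 cases are sparse sums or genes in which the other 3 mice were at 0.

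Among the members these were Ces1g in zinc depleted mouse 3 (0.159 TMM-scaled CPM, from 2 counts) and Ces2b in standard diet mouse 3 (0.252, also from 2 counts). Of the rest of the family, Ces2h in zinc depleted mouse 3 (0.0796) and Ces3a in standard diet mouse 3 (0.126) each rested on 1 count. Ces1c was at 77.5 TMM-scaled CPM in zinc depleted mouse 1, against 58.6 to 61.4 in the other 3 mice of that diet, and with it the sum of the 12 non-member carboxylesterases was 79.4, against 63.4 to 65.2.

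Among marker sums, enterocyte markers reached 711 TMM-scaled CPM in standard diet mouse 3, against 518 to 522 in the rest of its group. In that mouse Ces2a and Ces2e were also the highest of the 8 mice on the TMM scale. By library size only, the enterocyte sums were 820, 602, 659 and 491 CPM in standard diet mice 1 to 4, so mouse 3 did not stand apart. Ces2e was then at 7.48 CPM in standard diet mouse 3 and 7.94 CPM in zinc depleted mouse 3. Tuft cell markers reached 318 in zinc depleted mouse 3, against 18.7 to 58.1, and adipocyte markers 0.215 in standard diet mouse 1, against 0 in the other 3.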

How the results depend on the processing

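Over all genes, edgeR's test called 44, and the count was 135 with DESeq2's test, 251 with no low count filter, 25 without the robust option, 11 with library size only and 8 to 36 with 1 mouse left out (8 without standard diet mouse 2 or 4, 13 without zinc depleted mouse 2, 17 without zinc depleted mouse 4 and 26 without zinc depleted mouse 1). Higher calls were 36.4% of all calls, against 56.0% without the robust option and 34.6% to 75% with 1 mouse left out. The count of neighbouring levels that differed, 3 of 7, was 0 with the canonical transcript length, 0 with CPM without length and 0 with any 1 mouse left out, where the smallest possible p was 0.0156. The median log2 difference of the tested members stayed below 0, from −0.55 to −0.04.

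Ces1d stayed below 0 in 15 of 15 alternatives and passed in 7. Beside the mice named above, its call was lost with library size only (edgeR adjusted p 0.0708) and without the robust option (0.0537), and DESeq2's adjusted p was 0.00162. Its mean was under 5 CPM, so that filter gave no value. The log2 difference of Ces2c changed sign with library size only (−0.07) and under the block. Unique stretches of Ces2c were 26.8% with 50 bases and 38.9% with 100.

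Mice of the same number deviated together only weakly (correlations 0.114, 0.0925, 0.00489 and 0.0926), so the numbers were not taken as pairs. With the replicate block, 53 genes were called, of which 36 were shared with the fit without it, and Ces1d had a log2 difference of −2.10 (edgeR adjusted p 0.0104). Depth limits Ces1f, Ces1g and Ces2b, which had 31, 25 and 2 counts over all mice.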
